A study of Homo sapiens with 6 samples.

Results

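DNA replication licensing and fork proteins were followed through 49 genes in cells labelled HepG2 that were treated with PD. The genes were taken as a list of symbols that covers origin recognition, loading and activation of the replicative helicase, the polymerases with their clamp, and nucleotide supply. No measured value entered the rule, but the list was chosen with earlier results of these data known. All 49 were found among the 28563 genes of the deposited table by matching its Ensembl identifiers to symbols of GENCODE release 44. All 49 also reached the minimum of a mean of 0.5 FPKM over the libraries and were among the 14400 genes tested. FPKM are counts of fragments scaled by exon length and by the depth of the library.

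PD, or polydatin, is a plant glucoside of resveratrol. The treated group consisted of 3 dishes of cells labelled HepG2, an established line from a human liver cancer, that received PD in DMSO at a labelled dose of 336 µM for 24 h, a dose that the study's methods state somewhat lower. The control group consisted of 3 dishes of the same cells that received DMSO for the same time, and the dishes were allotted to the groups at random. RNA with poly(A) tails was sequenced with 1 library per dish, so that p-values measure the spread between dishes of a single line.

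The libraries held 16308476 to 18071632 fragments. Pairs of libraries differed by a chi-square per gene of 2.43 to 3.89 within a group and of 51.9 to 60.3 between groups. Of 17 hepatocyte markers, 9 were found among the genes read here, and 2 of these, CPS1 and RBP4, reached 1 FPKM in any library. The others, ALB and AFP among them, were not found and have no value here. The liver factor HNF4A stayed at or under 0.106 FPKM, and SERPINA1 at or under 0.0452 FPKM. These levels go against the labelled line, for which hepatocyte genes are a defining trait. CPS1, a mitochondrial enzyme of the urea cycle, made up nearly the whole summed level of the hepatocyte list, which was 222.2 to 229.0 FPKM in DMSO and 107.4 to 112.6 FPKM in PD. Of 6 fibroblast markers 4 were found and 2 reached 1 FPKM. Their list had a summed level of 4.40 to 5.29 FPKM in DMSO and 4.75 to 5.05 FPKM in PD. None of the endothelial or leukocyte markers found reached 1 FPKM. The part of these markers in the values below was not tested.

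In a dividing human cell, origins are first licensed in G1 and then fired in S phase. The origin recognition complex (ORC) with CDC6 and CDT1 loads the ring of MCM2 to MCM7 onto DNA, while geminin (GMNN) binds CDT1 and blocks a second loading in the same cycle. The kinase CDC7 with its partner DBF4, and then CDC45 and the GINS complex, turn the loaded ring into an active helicase, behind which the polymerases, the sliding clamp PCNA, its loader RFC and the single-strand binding complex RPA copy the DNA. Many of these genes are transcribed from late G1 on under E2F factors, whereas genes of mitosis reach their peak later, under factors that act through CHR and CCAAT elements.

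The promoters of 43 of the 49 genes were read from RefSeq on GRCh38.p14, each as 300 bases, with 250 before the start of the gene and 50 from it on. They were searched on both strands for an E2F motif, written TTTCCCGC, TTTCGCGC, TTTGCCGC or TTTGGCGC. A motif was present in 19 of the 43 promoters (44.2%), against 3.33% of all 27305 promoters and 5.60% of the 9809 promoters of tested genes. The promoters of 4 licensing and helicase genes are shown because each holds the motif, while the transcripts of CDC6 and CDT1 were higher in PD and those of MCM2 and MCM6 were lower. Capitals mark the E2F motif on either strand, and the lines run 5′ to 3′ on the strand of the gene. The CDC6 promoter lies at chr17:40287629-40287928 (plus strand), that of CDT1 at chr16:88803539-88803838 (plus), that of MCM2 at chr3:127598161-127598460 (plus) and that of MCM6 at chr2:135876394-135876693 (minus).
CDC6: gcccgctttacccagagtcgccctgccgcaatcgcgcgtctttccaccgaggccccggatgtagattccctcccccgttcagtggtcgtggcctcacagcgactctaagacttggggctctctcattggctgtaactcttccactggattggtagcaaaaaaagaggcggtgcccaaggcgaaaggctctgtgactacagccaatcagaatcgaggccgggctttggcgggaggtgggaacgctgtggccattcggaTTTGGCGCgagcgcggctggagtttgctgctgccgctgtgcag
CDT1: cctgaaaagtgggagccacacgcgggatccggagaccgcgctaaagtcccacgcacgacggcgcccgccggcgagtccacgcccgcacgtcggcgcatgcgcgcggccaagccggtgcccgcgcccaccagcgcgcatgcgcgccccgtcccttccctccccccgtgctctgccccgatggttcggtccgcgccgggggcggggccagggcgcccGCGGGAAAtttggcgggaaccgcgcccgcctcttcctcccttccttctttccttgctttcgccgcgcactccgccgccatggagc
MCM2: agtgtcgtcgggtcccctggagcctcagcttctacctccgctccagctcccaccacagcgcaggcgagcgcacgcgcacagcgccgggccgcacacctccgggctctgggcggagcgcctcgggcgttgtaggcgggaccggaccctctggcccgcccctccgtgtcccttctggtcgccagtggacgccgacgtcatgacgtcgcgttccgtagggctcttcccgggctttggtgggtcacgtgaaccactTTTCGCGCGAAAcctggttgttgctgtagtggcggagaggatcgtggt
MCM6: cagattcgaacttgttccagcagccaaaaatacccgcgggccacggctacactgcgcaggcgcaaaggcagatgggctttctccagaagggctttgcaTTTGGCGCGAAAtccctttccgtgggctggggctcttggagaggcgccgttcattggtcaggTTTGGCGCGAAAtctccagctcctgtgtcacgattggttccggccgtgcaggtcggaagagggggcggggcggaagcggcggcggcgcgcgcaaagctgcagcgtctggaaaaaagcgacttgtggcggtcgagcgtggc

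With the start counted as base 1, the motif of CDC6 began at base 8 and that of CDT1 at 35 bases before the start. MCM2 held a pair of matches beginning at bases 3 and 7, in which the forward TTTCGCGC runs by 4 bases into a reverse-strand match, GCGCGAAA. MCM6 held 2 overlapping pairs of this kind with TTTGGCGC in front, which began 152 and 90 bases before the start. The motif was present in 10 of 26 promoters of the genes called higher (38.5%), in 4 of 8 of those called lower and in 5 of 9 of those not called (55.6%). The CHR element, written TTTGAA or TTCGAA, was found in 3 of the 43 promoters (6.98%), those of MCM6, DBF4 and RRM1, against 16.6% of all promoters and 11.0% of those of tested genes. CCAAT was found in 24 (55.8%), against 35.7% and 36.9%. E2F and CCAAT matches shared bases in 1 promoter, and E2F and CHR matches in 0. A match describes the letters in this window and does not show a bound site.

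The expression of the 49 genes in PD was compared with that in DMSO by limma on log2(FPKM + 1), with p-values adjusted over all 14400 genes. Calls of higher or lower require an adjusted p no greater than 0.05, and DEGs also a change of 2-fold or more on the FPKM + 1 scale. The added 1 makes this stricter than a 2-fold change in mean FPKM, most of all for genes at low levels. Of the 49 genes, 31 were called higher in PD, 9 were called lower and 9 were not called, whereas over all tested genes 31.9% were called higher and 26.2% lower, or 58.1% in either direction. CDC6 was the only DEG among them, against 3.61% of all tested genes. The median log2 fold change of the 49 genes was 0.26, with a range from -0.40 to 1.15, beside a median of 0.01 over all tested genes. In bulk RNA, fewer cells in a phase of the cycle and less RNA per cell cannot be told apart.

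By library, all PD values lay above all DMSO values for 32 of the 49 genes, against 35.6% of all tested genes, and all below for 9, against 29.9%. The groups overlapped for 8. Sizes were modest, with a median absolute log2 fold change of 0.30 for the 49 genes and 0.27 for all tested genes. When libraries were scaled to their upper quartile instead, the median of all genes moved to -0.09 and that of the 49 genes to 0.13, so that they stood 0.23 apart in place of 0.24. Under that scaling 27 of the 49 genes were called higher and 12 lower, and over all genes 3379 were called higher and 5255 lower in place of 4588 and 3780.

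**Figure D1:**
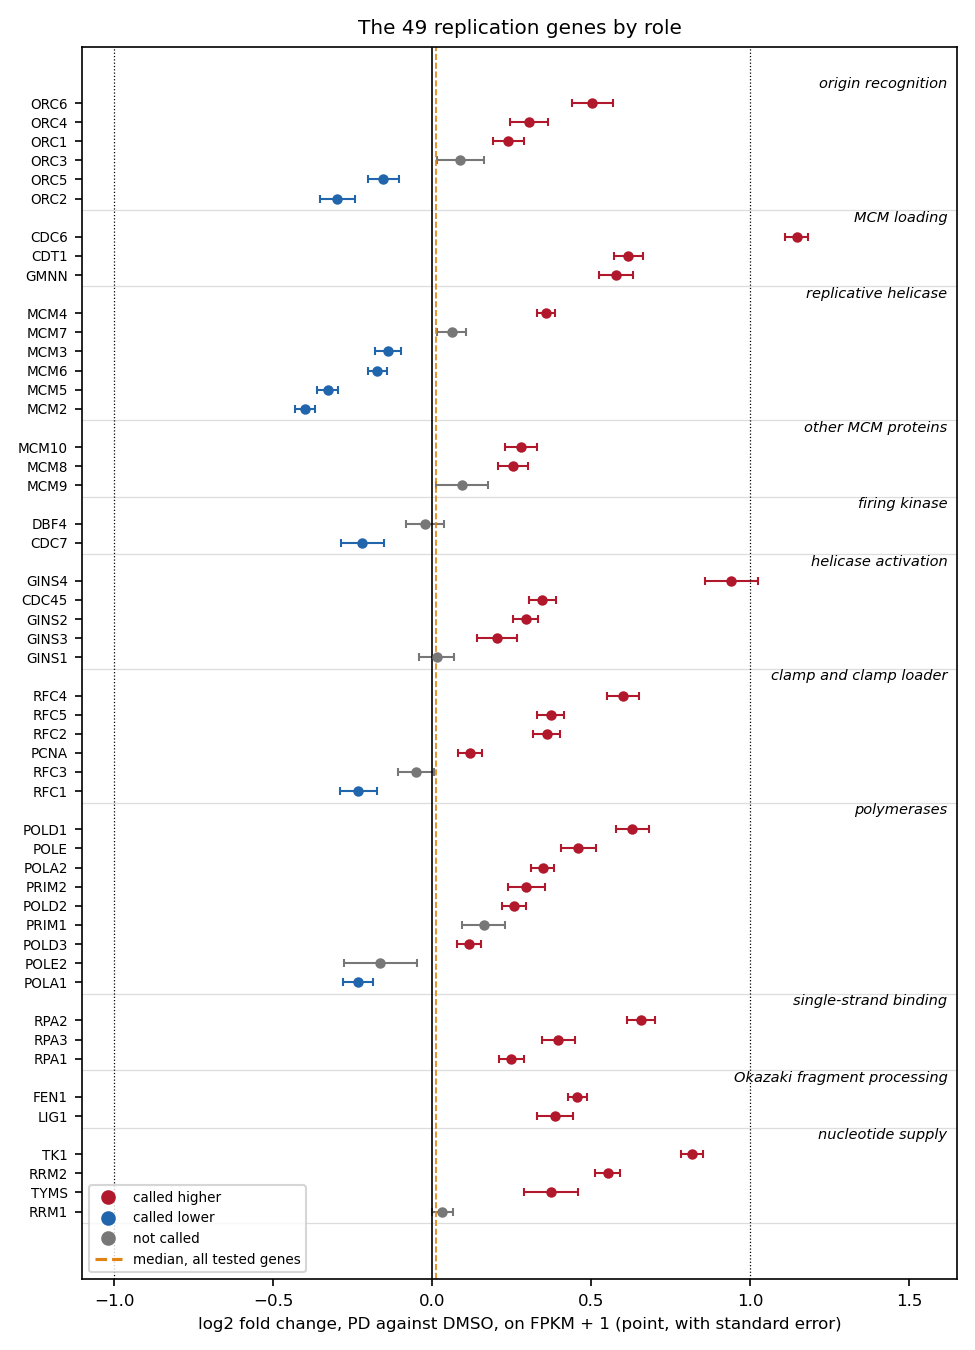
The log2 fold change of each of the 49 genes in PD against DMSO on the FPKM + 1 scale (horizontal axis), grouped by role (vertical axis), with bars for the standard error and colours for the call. Dotted lines mark a 2-fold change, which CDC6 alone passed, and the genes called higher (31) outnumber those called lower (9), 4 of which belong to the ring of MCM2 to MCM7. The changes of ORC3, MCM7, GINS1, PCNA, POLD3 and RRM1 turn below 0 under upper quartile scaling.

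Among the genes of origin recognition, ORC1, ORC4 and ORC6 were higher in PD, ORC2 and ORC5 were lower, and ORC3 was not called, with a median log2 fold change of 0.16. ORC6, the smallest subunit of the complex, was at 10.3, 11.8 and 11.7 FPKM in DMSO and at 17.4, 15.6 and 16.2 FPKM in PD. Its PD values all lay above the DMSO values, with a log2 fold change of 0.50 ± 0.06 (SE; adjusted p = 0.00046). ORC2, another subunit, had 6.56, 6.83 and 6.34 FPKM in DMSO and 5.04, 5.51 and 4.94 FPKM in PD. Here all PD values lay below, with a log2 fold change of -0.30 ± 0.06 (adjusted p = 0.0028).

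ORC4 went from 2.19 ± 0.0332 to 2.94 ± 0.139 FPKM (mean ± SD, n = 3; log2 fold change 0.30, adjusted p = 0.0036) and ORC1, an ATP-binding subunit, from 11.2 ± 0.498 to 13.4 ± 0.527 FPKM (0.24, adjusted p = 0.0042). The call of ORC1 was lost under upper quartile scaling (adjusted p = 0.095). ORC5 was at 17.7 ± 0.580 FPKM in DMSO and 15.8 ± 0.820 FPKM in PD (-0.15, adjusted p = 0.028), a call that was lost without DMSO1, DMSO3, PD2 or PD3 (adjusted p of 0.069 to 0.092). ORC3 overlapped between the groups, and its log2 fold change had a 95% interval of -0.09 to 0.26. The ratio of the highest to the lowest subunit of the complex fell from 8.16, 7.92 and 8.18 in DMSO to 5.70, 5.70 and 5.40 in PD. The ratio of ORC6 to ORC2 went the other way, from 1.71 ± 0.143 to 3.18 ± 0.321, so the spread did not narrow for all subunits.

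The loading genes, here CDC6 and CDT1 together with GMNN, which blocks loading, were all higher in PD, with a median log2 fold change of 0.62. CDC6, the ATPase that joins ORC at origins, lies on chromosome 17 at 40287879 to 40304657 of hg38. It stood at 16.8, 17.9 and 17.3 FPKM in DMSO and at 40.3, 38.6 and 39.9 FPKM in PD. The groups were far apart, with CDC6 128.2% higher in PD and a log2 fold change of 1.15 ± 0.04 (adjusted p = 2.4e-06), the largest among the 49 genes on the FPKM + 1 scale.

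CDT1, which brings the MCM ring to ORC and CDC6, lies on chromosome 16 at 88803789 to 88809258. Its levels were 26.2, 26.4 and 29.0 FPKM in DMSO and 41.6, 41.6 and 43.3 FPKM in PD. The groups did not overlap, and the log2 fold change was 0.62 ± 0.05 (adjusted p = 3.4e-05). GMNN, its inhibitor, rose beside it, from 31.5, 28.9 and 27.7 FPKM to 46.2, 43.3 and 43.3 FPKM, a log2 fold change of 0.58 ± 0.05 (adjusted p = 9e-05).

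The ratio of CDT1 to GMNN FPKM was 0.831, 0.913 and 1.04 in DMSO and 0.900, 0.960 and 1.00 in PD, and the groups overlapped. In contrast, the ratio of CDC6 to CDT1 was 0.642, 0.679 and 0.598 in DMSO and 0.968, 0.930 and 0.921 in PD, with no overlap. The summed FPKM of CDC6, CDT1 and the inhibitor GMNN went from 73.9 ± 0.743 to 126.0 ± 2.31. This was the largest relative rise of a summed level among the 11 roles (70.5%), but with GMNN in the sum it does not measure loading. These ratios and sums are descriptions and were given no test.

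**Figure D2:**
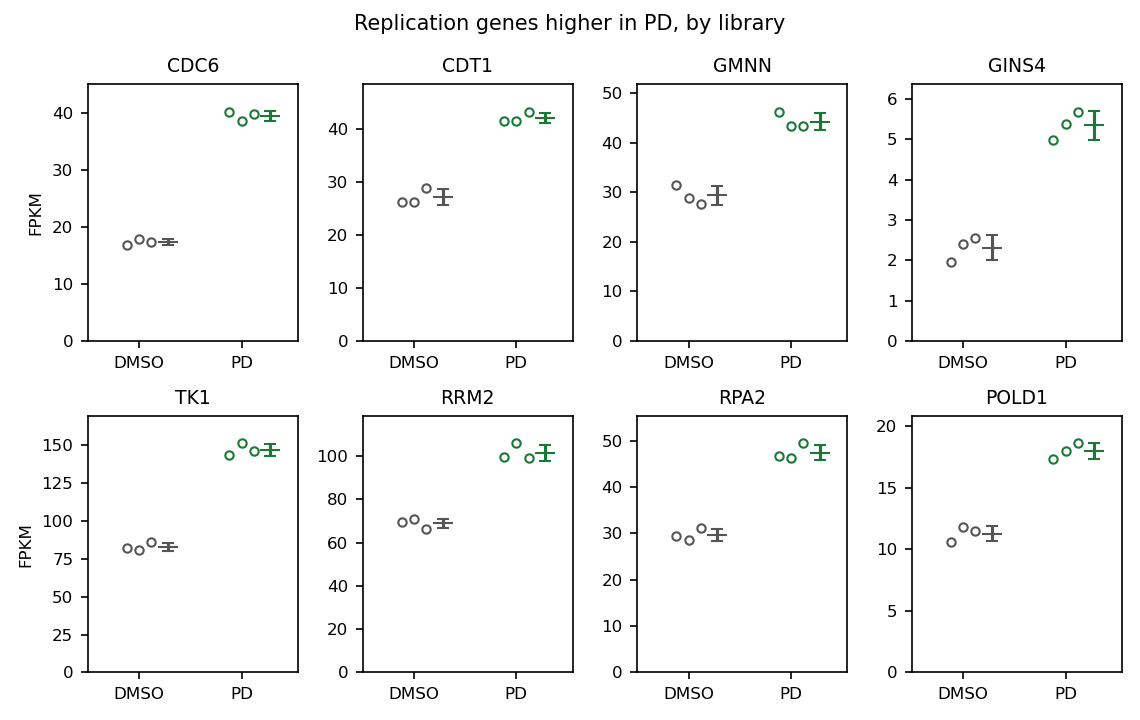
FPKM (vertical axis, from 0) of CDC6, CDT1, GMNN, GINS4, TK1, RRM2, RPA2 and POLD1 in the 3 DMSO and 3 PD libraries (horizontal axis), with circles for libraries and bars for mean ± SD. In each panel the PD circles lie above all DMSO circles, and the gap is widest relative to the level for CDC6 and GINS4.

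The replicative helicase did not follow the loading genes. Of the 6 genes of the MCM ring, MCM2, MCM3, MCM5 and MCM6 were lower in PD, MCM4 was higher and MCM7 was not called, with a median log2 fold change of -0.16. MCM2, on chromosome 3 at 127598410 to 127622436, was at 116.0, 116.7 and 117.9 FPKM in DMSO and at 87.3, 91.7 and 86.2 FPKM in PD. The groups were well separated, with a log2 fold change of -0.40 ± 0.03 (adjusted p = 4.3e-05), the largest fall among the 49 genes. Exons of another gene cover 23.6% of its exon bases, and since the strand setting of the counting is not given in the sources used here, the origin of those fragments is uncertain.

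MCM5, which meets MCM2 at the gate of the ring, had 22.8, 22.7 and 23.1 FPKM in DMSO and 17.8, 18.3 and 18.0 FPKM in PD. All PD values were lower, with a log2 fold change of -0.33 ± 0.03 (adjusted p = 0.00012). MCM6 had 41.3, 42.7 and 41.8 FPKM in DMSO and 37.5, 36.9 and 36.9 FPKM in PD, a smaller fall of 11.5% (log2 fold change -0.17 ± 0.03, adjusted p = 0.0019). MCM3 was at 82.3, 86.7 and 91.8 FPKM in DMSO and 78.4, 79.4 and 78.6 FPKM in PD. The lowest DMSO value of MCM3 was close to the PD values (log2 fold change -0.14, adjusted p = 0.023), and its call was lost without DMSO2, PD1, PD2 or PD3 (adjusted p of 0.052 to 0.065).

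MCM4, one of the subunits that form the catalytic core with MCM6 and MCM7, went the other way. Its levels were 43.2, 43.0 and 42.8 FPKM in DMSO and 55.0, 56.3 and 54.8 FPKM in PD. The DMSO libraries were nearly equal and all PD libraries were above them (log2 fold change 0.36 ± 0.03, adjusted p = 4.2e-05). MCM7 was at 79.7, 82.4 and 86.9 FPKM in DMSO and 84.5, 91.1 and 84.2 FPKM in PD, where the groups overlapped. The 95% interval of its log2 fold change was -0.05 to 0.17. The calls of MCM2, MCM4, MCM5 and MCM6 and the lack of one for MCM7 held in each of the 12 alternative settings tried.

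The ring subunits are used in equal number, and the balance of their transcripts was different in PD. MCM2 made up 30.1%, 29.6% and 29.2% of the summed MCM2 to MCM7 FPKM in DMSO and 24.2%, 24.5% and 24.0% in PD. MCM4 made up 11.2%, 10.9% and 10.6% in DMSO and 15.3%, 15.1% and 15.3% in PD. The ratio of MCM2 to MCM4 went from 2.72 ± 0.0332 to 1.60 ± 0.0285, while the summed FPKM of the ring went from 394.6 ± 9.56 to 364.2 ± 8.18, with no overlap between groups.

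**Figure D3:**
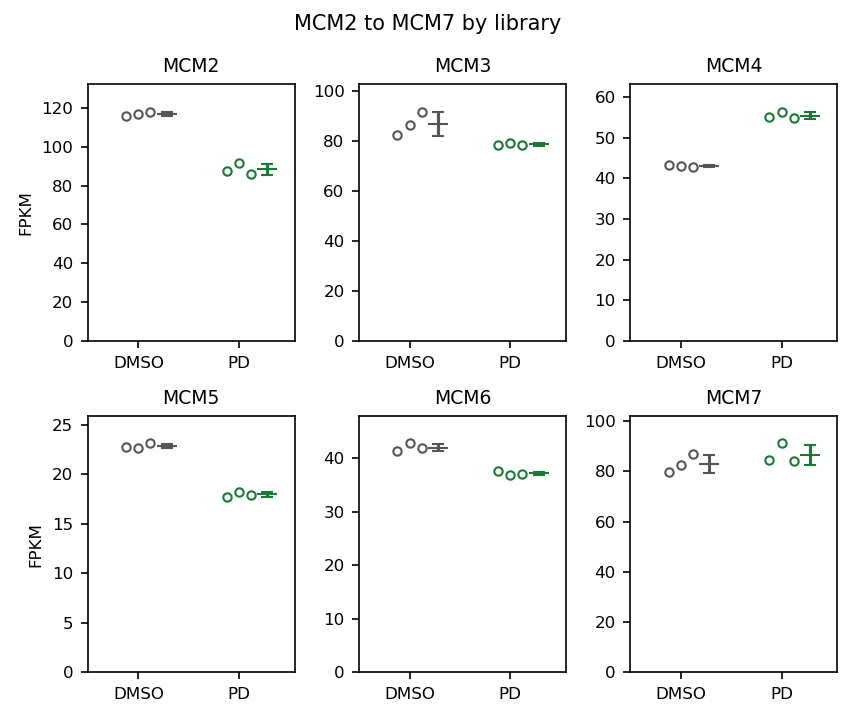
FPKM (vertical axis, from 0) of MCM2, MCM3, MCM4, MCM5, MCM6 and MCM7 in the 3 DMSO and 3 PD libraries (horizontal axis), with circles for libraries and bars for mean ± SD. PD circles lie below all DMSO circles for MCM2, MCM3, MCM5 and MCM6, above them for MCM4, and among them for MCM7.

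The remaining MCM proteins are not part of the ring. MCM10, which acts when the helicase starts to move, was at 7.05, 7.03 and 7.06 FPKM in DMSO and 9.33, 8.33 and 8.67 FPKM in PD. All PD values were higher (log2 fold change 0.28 ± 0.05, adjusted p = 0.0024). MCM8, known for its role in recombination repair together with MCM9, had a log2 fold change of 0.25 (adjusted p = 0.0031), with 33.3% of its exon bases shared with another gene. MCM9 was near 1 FPKM in both groups, was not called and had an interval of -0.10 to 0.29.

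The firing kinase had no member called higher. CDC7, its catalytic subunit, was at 15.8, 16.7 and 14.5 FPKM in DMSO and 14.1, 12.2 and 13.6 FPKM in PD. The lowest DMSO and the highest PD library were close (log2 fold change -0.22 ± 0.07, adjusted p = 0.026), and the call was lost without DMSO1, DMSO2, PD2 or PD3 (adjusted p from just over 0.050 to 0.080). DBF4, its activating subunit, overlapped between the groups, with a log2 fold change of -0.02 and an interval of -0.16 to 0.11, although under upper quartile scaling it was called lower (-0.15, adjusted p = 0.046).

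Of the factors that activate the loaded helicase, CDC45, GINS2, GINS3 and GINS4 were higher in PD and GINS1 was not called. GINS4, a subunit of the GINS complex, was at 1.97, 2.41 and 2.56 FPKM in DMSO and 4.97, 5.39 and 5.68 FPKM in PD. The groups did not overlap, and the log2 fold change was 0.94 ± 0.08 on the FPKM + 1 scale (adjusted p = 7.8e-05), which understates the 131.2% higher mean of a gene at this level. GINS4 rested on 186 to 517 fragments per library, and a single antisense gene covers 21.0% of its exon bases. With a pseudocount of 0.1, or with limma voom on fragments, it passed the 2-fold threshold as well.

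CDC45, the helicase partner of GINS, went from 23.7 ± 1.01 to 30.4 ± 0.830 FPKM (log2 fold change 0.35, adjusted p = 0.00034) and GINS2 from 15.2 ± 0.294 to 18.8 ± 0.632 FPKM (0.29, adjusted p = 0.00056). GINS3 was called with a log2 fold change of 0.20 (adjusted p = 0.027), which was lost under upper quartile scaling (adjusted p = 0.28) and without DMSO1, DMSO3, PD2 or PD3 (adjusted p of 0.067 to 0.090). GINS1 overlapped between the groups, with an interval of -0.12 to 0.15. The ratio of GINS4 to GINS1 was 0.236, 0.295 and 0.323 in DMSO and 0.573, 0.637 and 0.747 in PD, and all PD values lay above.

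The clamp PCNA, which holds polymerases on the template, was the most abundant of the 49 genes by mean FPKM in both groups, with 129.5, 138.0 and 140.5 FPKM in DMSO and 150.6, 145.0 and 147.4 FPKM in PD. All PD libraries lay above the DMSO libraries, but by little (log2 fold change 0.12 ± 0.04, adjusted p = 0.027). This call was lost under median-of-ratios scaling (adjusted p = 0.090) and without DMSO1, PD1 or PD3 (adjusted p of 0.068 to 0.084), and upper quartile scaling gave -0.02 (adjusted p = 0.70).

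Its loader RFC was split. RFC4, a small subunit, was at 21.9, 24.9 and 23.8 FPKM in DMSO and 37.2, 35.1 and 36.3 FPKM in PD, with no overlap (log2 fold change 0.60 ± 0.05, adjusted p = 6.2e-05). RFC2 and RFC5 were higher by 0.36 and 0.37 (adjusted p = 0.00029 and 0.00027). RFC1, the large subunit, was at 12.4, 12.4 and 12.1 FPKM in DMSO and 11.2, 9.55 and 10.3 FPKM in PD. All PD values of RFC1 were lower (log2 fold change -0.23 ± 0.06, adjusted p = 0.011), and the ratio of RFC4 to RFC1 went from 1.91 ± 0.129 to 3.50 ± 0.173. RFC3 overlapped, with an interval of -0.18 to 0.08, and was called lower under upper quartile scaling alone (adjusted p = 0.022).

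Of the 9 polymerase genes 6 were higher, 1 was lower and 2 were not called, with a median log2 fold change of 0.26. POLD1, the catalytic subunit of polymerase delta, lies on chromosome 19 at 50384204 to 50418018. Its levels were 10.6, 11.8 and 11.5 FPKM in DMSO and 17.3, 18.0 and 18.6 FPKM in PD. The groups did not overlap (log2 fold change 0.63 ± 0.05, adjusted p = 5e-05). Its partners moved less, POLD2 by 0.26 (adjusted p = 0.00096) and POLD3 by 0.12 (adjusted p = 0.036). The POLD3 call was lost without DMSO1, DMSO2, DMSO3, PD1 or PD3 (adjusted p of 0.052 to 0.11) and with median-of-ratios factors (adjusted p = 0.072), and its sign turned under upper quartile scaling (-0.02, adjusted p = 0.74).

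POLE, the catalytic subunit of the leading-strand polymerase epsilon, was at 9.38 ± 0.634 FPKM in DMSO and 13.3 ± 0.429 FPKM in PD (log2 fold change 0.46, adjusted p = 0.00033). Its partner POLE2 was not called, at 3.82 ± 0.530 and 3.31 ± 0.541 FPKM, with a wide interval of -0.43 to 0.11 that rests on 131 to 224 fragments per library. The ratio of POLE2 to POLE was 0.504, 0.392 and 0.336 in DMSO and 0.295, 0.258 and 0.198 in PD, all lower.

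The subunits of polymerase alpha, which lays down primers with primase, went in opposite directions. POLA1, its catalytic subunit, was at 28.8, 29.1 and 29.9 FPKM in DMSO and 25.6, 23.1 and 25.6 FPKM in PD. All PD values were lower (log2 fold change -0.23 ± 0.05, adjusted p = 0.0042). POLA2, its regulatory subunit, was at 19.5, 19.8 and 20.6 FPKM in DMSO and 25.3, 26.3 and 25.5 FPKM in PD. All PD values of POLA2 were higher (0.35 ± 0.04, adjusted p = 0.00019), and the ratio of POLA2 to POLA1 went from 0.682 ± 0.00670 to 1.04 ± 0.0853. Exons of another gene on the same strand cover 16.8% of the exon bases of POLA2, so the origin of fragments there is uncertain. Of the primase subunits, PRIM2 was higher by 0.30 (adjusted p = 0.0033), whereas PRIM1 was not called although its PD values lay above those in DMSO (0.16, interval 0.00 to 0.32, adjusted p = 0.079).

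The single-strand binding complex was higher in all 3 subunits, with a median log2 fold change of 0.40. RPA2, the subunit that is phosphorylated when forks stall, was at 29.5, 28.5 and 31.1 FPKM in DMSO and 46.6, 46.3 and 49.4 FPKM in PD. The groups did not overlap (0.66 ± 0.04, adjusted p = 2.1e-05). RPA3 and RPA1 were higher by 0.40 and 0.25 (adjusted p = 0.00054 and 0.0012), and the ratio of RPA2 to RPA1 went from 0.737 ± 0.0186 to 0.987 ± 0.0520.

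Both genes that finish Okazaki fragments were higher. FEN1, the flap nuclease, was at 68.3, 71.8 and 71.0 FPKM in DMSO and 94.9, 97.6 and 98.2 FPKM in PD, with all PD values above (0.46 ± 0.03, adjusted p = 2.4e-05). LIG1, the ligase that seals the nick, went from 4.83 ± 0.252 to 6.62 ± 0.340 FPKM (0.39, adjusted p = 0.00092).

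Nucleotide supply had the highest median after the loading genes, 0.46, with 3 of 4 genes higher. TK1, the cytosolic thymidine kinase, lies on chromosome 17 at 78174091 to 78187233. It was at 82.2, 80.8 and 85.9 FPKM in DMSO and 143.9, 151.2 and 146.0 FPKM in PD, and the groups were far apart (log2 fold change 0.82 ± 0.03, adjusted p = 4.1e-06). TYMS, thymidylate synthase, was higher by 0.37 (adjusted p = 0.0072), but 39.9% of its exon bases are shared with ENOSF1 and 7.97% with TYMSOS.

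The subunits of ribonucleotide reductase, which makes deoxynucleotides, did not move together. RRM2, the small subunit whose level limits the enzyme in S phase, was at 69.6, 70.8 and 66.4 FPKM in DMSO and 99.5, 105.9 and 99.0 FPKM in PD, with no overlap (0.55 ± 0.04, adjusted p = 2.8e-05). RRM1, the large subunit, was at 71.8, 72.8 and 69.6 FPKM in DMSO and 74.9, 71.0 and 73.1 FPKM in PD. Its groups overlapped, with an interval of -0.05 to 0.11, and upper quartile scaling gave -0.10 (adjusted p = 0.023). The ratio of RRM2 to RRM1 was 0.969, 0.972 and 0.954 in DMSO and 1.33, 1.49 and 1.36 in PD.

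The roles differed in the size of their summed levels. Single-strand binding went from 81.5 ± 2.62 to 110.9 ± 0.665 summed FPKM, nucleotide supply from 231.5 ± 0.706 to 332.4 ± 5.57 and the polymerases from 166.2 ± 2.60 to 193.3 ± 1.84. The replicative helicase was lower in sum, and the firing kinase overlapped between groups, at 24.8 to 27.8 summed FPKM in DMSO and 22.0 to 25.4 in PD.

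The 49 genes were set beside 52 other genes of replication, of which 50 were tested. Of these 22 were higher, 9 lower and 19 not called, while over all tested genes 31.9% were higher and 26.2% lower. The median of the 50 genes was 0.11 on the log2 scale. Under upper quartile scaling 19 of them were higher and 18 lower, against 23.5% and 36.5% of all tested genes. The largest rises on the log2(FPKM + 1) scale were those of SAMHD1, an enzyme that degrades deoxynucleotides, from 6.40 ± 0.522 to 16.1 ± 0.944 FPKM (1.21, adjusted p = 9.7e-06), and LRWD1, which binds ORC, from 4.58 ± 0.235 to 10.8 ± 0.348 FPKM (1.08, adjusted p = 6e-06). ASF1B, a histone chaperone, followed, from 33.4 ± 1.13 to 70.5 ± 1.17 FPKM (1.06, adjusted p = 2.6e-06). Its paralog ASF1A was lower (-0.43, adjusted p = 0.0068), as were CUL4A, a scaffold of the ligase that degrades CDT1 (-0.59, adjusted p = 1.4e-05), and MTBP, a firing factor (-0.42, adjusted p = 0.0011). Of the other genes listed for the degradation of licensing factors, DTL and DDB1 were higher (0.60 and 0.28, adjusted p = 6.3e-05 and 0.0004). SKP2 and CUL4B were not called.

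Genes of G2 and mitosis, and further genes of the G1/S transition, gave another measure. Of 22 genes of G2 and mitosis, 20 were lower in PD, against 26.2% of all tested genes. CDC25C was not called and AURKB was higher (0.32, adjusted p = 0.00064), and the median was -0.77. On the FPKM + 1 scale 5 were DEGs, against 3.61% of all tested genes. With a pseudocount of 0.1 or with limma voom on fragments 7 were DEGs. Over all tested genes these settings gave 1248 of 14400 and 1811 of 15315 DEGs, in place of 520 of 14400. The largest falls on the log2(FPKM + 1) scale were those of PLK1 and AURKA, mitotic kinases, and TOP2A, the mitotic topoisomerase. Mean FPKM fell by 67.0% for PLK1 (adjusted p = 1.4e-06), fell by 62.0% for AURKA (adjusted p = 3.2e-06) and fell by 51.9% for TOP2A (adjusted p = 1.4e-05). Of 16 genes of the G1/S transition that are not among the 49, 8 were higher, 4 lower and 4 not called, with a median of 0.15. Upper quartile scaling gave 7 higher and 7 lower. Over all tested genes 31.9% were higher and 26.2% lower in the main fit, and 23.5% and 36.5% under upper quartile scaling. CHAF1B, of chromatin assembly, and CCNE2, a cyclin of S phase entry, were among those higher (0.72 and 0.65, with adjusted p = 1.7e-05 and 0.00037), while CCND1, CASP8AP2, UHRF1 and USP1 fell by 0.51, 0.31, 0.13 and 0.13 (adjusted p = 0.00014, 0.0018, 0.035 and 0.023). CCNE2 rested on 173 to 394 fragments per library, and exons of INTS8 on the opposite strand cover 37% of its exon bases. CHAF1B and DTL stand on both the G1/S list and that of other replication genes. The part of shifts between phases in the values of the 49 genes was not tested.

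**Figure D4:**
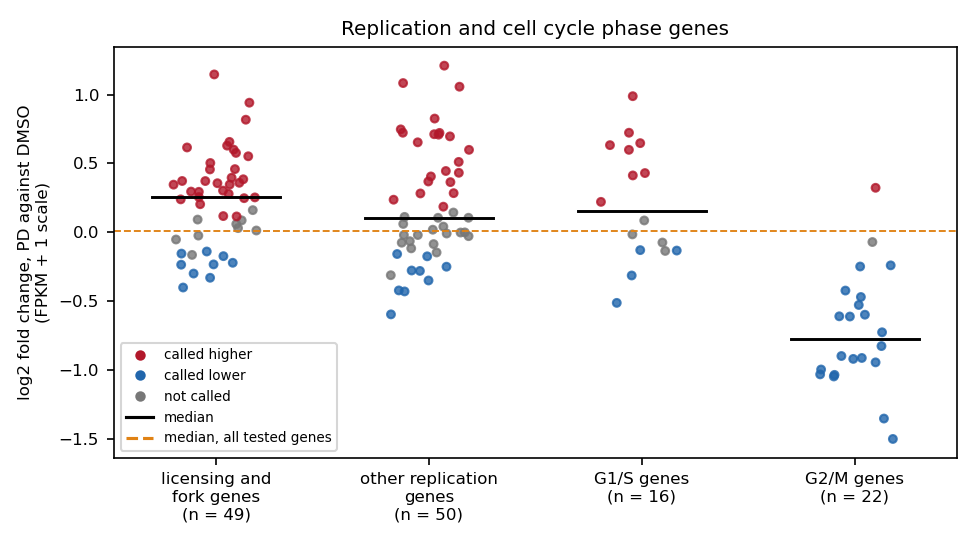
The log2 fold change of single genes in PD against DMSO on the FPKM + 1 scale (vertical axis) for the 49 licensing and fork genes, 50 other replication genes, 16 G1/S genes and 22 G2/M genes (horizontal axis), coloured by call, with black bars for medians and a dashed line for the median of all tested genes. The medians are 0.26, 0.11, 0.15 and -0.77, and all G2/M genes but AURKB lie below the dashed line. Under upper quartile scaling the median of the other replication genes is -0.01.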

How the data were processed

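RNA-seq was made from 3 PD and 3 DMSO dishes, grouped by the sample labels. The authors aligned poly(A) reads to hg38 with HISAT2, counted fragments per gene with HTSeq 0.6.0 (strand setting not given in the sources used here), and deposited 1 table of FPKM, which was the only measurement used. The test planned for FPKM applied. Genes averaging 0.5 FPKM or more were fitted as log2(FPKM + 1) with limma 3.58.1 in R 4.3.3, without covariates and with an intensity-dependent prior, and p-values were adjusted over all genes by the Benjamini-Hochberg method. The fit was run on simulated data with a single dispersion and changes in a small set of genes at higher levels. That run did not cover genes at low levels or a shift of most genes. Whole fragments were worked back from the FPKM to describe depth and to run limma voom, with at least 10 fragments in 3 libraries. Library totals of 16308476 to 18071632 fragments leave genes of few fragments with a large counting error. Other alternatives were a pseudocount of 0.1, no filter, 2 scalings, a block for the replicate number, and the omission of each library.

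The 49 genes, their roles and the other lists were chosen with earlier results of these data known. Values are given in each library for the largest change of each role, the 5 largest rises and 5 largest falls, and any DEG, and the 3 largest rises and falls of the other lists are named, except for a result that is not reported here. The remaining genes with values by library, the sum and ratio pairs, the promoters shown and CCND1, CASP8AP2, UHRF1, USP1, DTL, DDB1, SKP2, CUL4B, AURKB and CDC25C were chosen after their values were seen. Of the 49 genes, 24 share exon bases with another gene, 4 of them over 20% with a single gene.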

Additional observations from a re-analysis of the deposited data

How the results depend on the processing

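Of the 49 genes, 39 had the same call in all 12 alternatives (27 higher, 6 lower, 6 not called). The others were ORC1, ORC5, MCM3, CDC7, DBF4, GINS3, PCNA, RFC3, POLD3 and RRM1. Upper quartile scaling turned the sign of PCNA (-0.0181), POLD3 (-0.0150), RRM1 (-0.10) and, among genes not called in either fit, ORC3 (-0.03), MCM7 (-0.08) and GINS1 (-0.11), and took the other replication genes called lower to 18 and their DEGs to 1, the G2/M DEGs to 10 and the G1/S genes called lower to 7. Over all tested genes that scaling gave 499 DEGs, and 36.5% were called lower. A pseudocount of 0.1 and voom changed no call of the 49 genes at the adjusted p. They gave 1248 and 1811 DEGs over all genes in place of 520, 2 DEGs among the 49 genes and 1 among the G1/S genes. The pseudocount fit differed from the main fit only in the value added to the FPKM. A smaller value shrinks the log2 fold changes of genes at low levels less. Voom also differed in its filter and weights, and the part of each was not tested. No filter on FPKM left 29 of the 49 genes higher and 6 lower, against 15.6% and 12.6% of the 28563 genes then tested. In that fit ORC5, MCM3, CDC7, GINS3 and PCNA lost their call (adjusted p of 0.051 to 0.067). Median-of-ratios scaling left 29 higher and 9 lower.

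Without 1 library in turn, 28 to 30 of the 49 genes were higher and 6 to 8 lower. Over all tested genes 28.5% to 30.4% were then higher and 22.5% to 24.8% lower. The G1/S genes called lower ranged from 2 to 4, with 2 without DMSO2 or PD3, and their DEGs from 0 to 1. Same-numbered PD and DMSO libraries had deviations correlated at -0.03, 0.00 and 0.09, so the numbers were not taken to pair dishes. With the replicate block, 30 of the 49 genes were higher and 8 lower, as CDC7 (adjusted p = 0.052) and PCNA (adjusted p = 0.055) were no longer called, and 4414 and 3618 genes were called over all genes.

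A 200-base window gave the E2F motif in 19 promoters again. The shorter letters GCGC or GGGAAA were in 41 of 43 promoters (95.3%), against 90.4% of those of tested genes.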
